A study of Mus musculus with 4 samples.

Results

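miR-191 and miR-425 are a pair of microRNAs (miRNAs) cut from neighboring hairpins on mouse chromosome 9. The 4 mature strands of the pair, mmu-miR-191-5p, mmu-miR-191-3p, mmu-miR-425-5p and mmu-miR-425-3p, were taken by name from the deposited table of 1915 mouse mature miRNAs, of which 1101 had a count. Small RNA had been sequenced from MIN6, an insulin-secreting insulinoma line of the mouse, and from exosomes, the small vesicles that cells release, which were pelleted by ultracentrifugation out of medium conditioned by MIN6. There were 2 libraries of the cells and 2 of the exosomes, with no further treatment, and the fetal bovine serum in the medium had been depleted of exosomes. MIN6 is tumor-derived, so the libraries describe an insulinoma model and not islets, and the sources used here do not say whether the libraries of a group came from separate cultures. The p-values therefore measure the spread between these libraries, which may be technical.

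miR-191 and miR-425 are made from the same stretch of transcribed RNA. Drosha and Dicer cut each hairpin into a duplex of a 5p and a 3p strand, an Argonaute protein usually retains one of them, and the retained strand recognizes its messenger RNA targets mainly through bases 2 to 8, the seed. miR-191-5p is widely expressed across tissues and is often used as a reference for normalizing miRNA measurements. The comparison of exosomes with cells asks which miRNAs the vesicles carry relative to the cells that shed them.

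The mature strands are shown because each has a seed of its own, so that the 4 strands read different target sites. Capitals mark the seed, and the sequences are those of RefSeq on GRCm38.p6:
mmu-miR-191-5p: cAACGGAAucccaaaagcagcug
mmu-miR-191-3p: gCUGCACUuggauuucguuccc
mmu-miR-425-5p: aAUGACACgaucacucccguuga
mmu-miR-425-3p: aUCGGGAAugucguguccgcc

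The strands are between 21 and 23 bases long, so no correction for length was made. How well the library preparation captured each sequence was not measured, so comparisons between strands are of counts. Among the 1623 names of the table with a RefSeq sequence, 1 other miRNA shared a seed with a member. It was miR-489-3p, which carries the seed of miR-425-5p and had 0 counts in every library, and is shown for comparison:
miR-489-3p: aAUGACACcacauauauggcagc

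Neither GGAG nor CCCU, short motifs that have been described in miRNAs of exosomes, occurred in the 4 strands, searched on the strand as written. GGAG was present in 14.2% and CCCU in 11.6% of the 1623 sequences. None of the other miRNAs among the 1623 sequences had the sequence of a member. None of the 139554 annotated transcripts searched held one, leaving out miRNA genes and the genes that overlap the pair, such as Dalrd3 and 4833445I07Rik. Exact matches over the full strand were searched. Reads shared through shifted ends or mismatches, or with listed miRNAs that lack a RefSeq sequence, were not examined.

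The hairpins are shown with both mature strands in capitals, to place the strands on their precursor, and the deposited hairpin sequences were identical to them:
mir-191: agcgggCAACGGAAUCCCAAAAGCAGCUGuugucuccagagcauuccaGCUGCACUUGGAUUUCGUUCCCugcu
mir-425: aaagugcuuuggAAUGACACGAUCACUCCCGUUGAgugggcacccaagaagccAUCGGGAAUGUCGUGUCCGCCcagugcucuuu

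On GRCm38, Mir191 lies on the plus strand of chromosome 9 from 108568319 to 108568392 and Mir425 from 108568777 to 108568861, 384 bases downstream. The host gene depends on the annotation. The RefSeq gene Dalrd3, which encodes a DALR anticodon-binding domain protein, spans 108567484 to 108572773 and contains both hairpins. In GENCODE vM21, Dalrd3 starts 1024 bases downstream of Mir425, and the hairpins lie inside the lincRNA gene 4833445I07Rik (108567533 to 108569174). Both hairpins fall in the single exon of one of its transcripts, whereas in the other transcript Mir191 lies in intron 1 and Mir425 lies outside. The pair is thus not intronic to Dalrd3 by GENCODE, and the intron structure of the RefSeq gene was not analysed here. On the opposite strand Gm24083, annotated as a miRNA gene, overlaps Mir191.

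**Figure D1:**
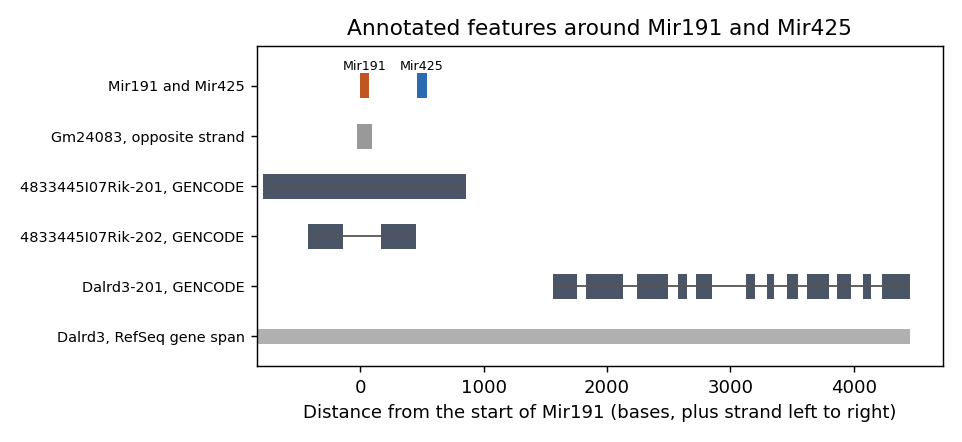
Annotated features around Mir191 and Mir425, drawn to scale, with the distance from the first base of Mir191 in bases on the horizontal axis; thick boxes are exons or genes and thin lines introns. Both hairpins lie within the RefSeq span of Dalrd3 and within 4833445I07Rik, but upstream of the first GENCODE exon of Dalrd3, which starts 1024 bases after Mir425.

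The mature counts added up to 2930217 and 2564068 for MIN6 and to 47447 and 31409 for its exosomes. A count of 3, taken as the detection floor, corresponded to 1.02 and 1.17 RPM (reads scaled to the sum of the library) in MIN6 and to 63.2 and 95.5 RPM in exosomes. All intervals and floors below are for counting error alone. The 6 miRNAs listed as beta cell markers, among them miR-375-3p and miR-7a-5p, made up 41155 and 40033 RPM of MIN6. In its exosomes they made up 27167 and 12767 RPM. These markers did not move alike. miR-7a-5p gave 78620 and 67072 counts in MIN6 against 394 and 32 in exosomes, and miR-184-3p gave 14086 and 9421 against 381 and 144. miR-375-3p gave 26702 and 25335 against 507 and 222. These counts are not scaled to the library sums. By the scaled test described below, log2 fold changes were -3.94 for miR-7a-5p, -2.87 for miR-375-5p, -1.43 for miR-375-3p and -0.76 for miR-184-3p. miR-153-3p gave 121 and 63 counts in MIN6 and 0 in the shallower exosome libraries. The 6 miRNAs of blood cells made up 1.37 and 1.95 RPM of MIN6 but 6639 and 1528 RPM of the exosomes, and the red cell miRNA miR-451a, with 0 counts in both MIN6 libraries, had 33 and 2 there. Both strands of miR-122, a liver miRNA, made up 4.44 and 8.19 RPM of MIN6 and 1728 and 2038 RPM of the exosomes. The part of these miRNAs in the results was not tested.

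miR-191-5p was one of the abundant miRNAs of both MIN6 and its exosomes. MIN6 gave 48002 and 46366 counts of it, and the exosomes gave 1304 and 832. As RPM, MIN6 was at 16382 and 18083 and the exosomes were at 27483 and 26489. In the order of counts miR-191-5p ranked 13 and 11 in the libraries of MIN6 and 9 in both libraries of exosomes. On the RPM scale the exosomes therefore lay above MIN6 with no overlap, a pattern found in 41.3% of the 438 tested miRNAs, while 33.8% had the opposite one. Its share of the mature counts was 1.64% (95% Wilson interval 1.62 to 1.65) and 1.81% (1.79 to 1.82) in MIN6 and 2.75% (2.60 to 2.90) and 2.65% (2.48 to 2.83) in exosomes.

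miR-425-5p was present at a far lower level. MIN6 gave 1210 and 1176 counts of it and the exosomes 21 and 17, which is 413 and 459 RPM against 443 and 541 RPM. Exosome replicate 1 lay between the MIN6 libraries and exosome replicate 2 above them, so that the groups overlapped on this scale. The mean level was 436 ± 32.3 RPM (SD, n = 2) in MIN6 and 492 ± 69.8 RPM (SD, n = 2) in exosomes.

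The 3p strands were the minor products of both hairpins. For miR-425-3p, MIN6 gave 191 and 163 counts and the exosomes 3 and 1. For miR-191-3p, MIN6 gave 102 and 98 counts and the exosomes 1 and 0. Both strands were thus at or below the floor of 3 counts in each exosome library, whereas they were well above it in MIN6. The mean level in MIN6 was 64.4 ± 1.14 RPM (SD, n = 2) for miR-425-3p and 36.5 ± 2.41 RPM (SD, n = 2) for miR-191-3p. For miR-191-3p of exosome replicate 2, a count of 0 allows a share of up to 0.00955% of the mature counts.

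In MIN6 the order of the levels by RPM was miR-191-5p, miR-425-5p, miR-425-3p and miR-191-3p, and no library of one strand overlapped a library of the next. In the exosomes miR-191-5p was again above miR-425-5p, and both were above the 3p strands in each library. With 3 and 1 against 1 and 0 counts, the order of the 3p strands in exosomes was not detectable at this depth.

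**Figure D2:**
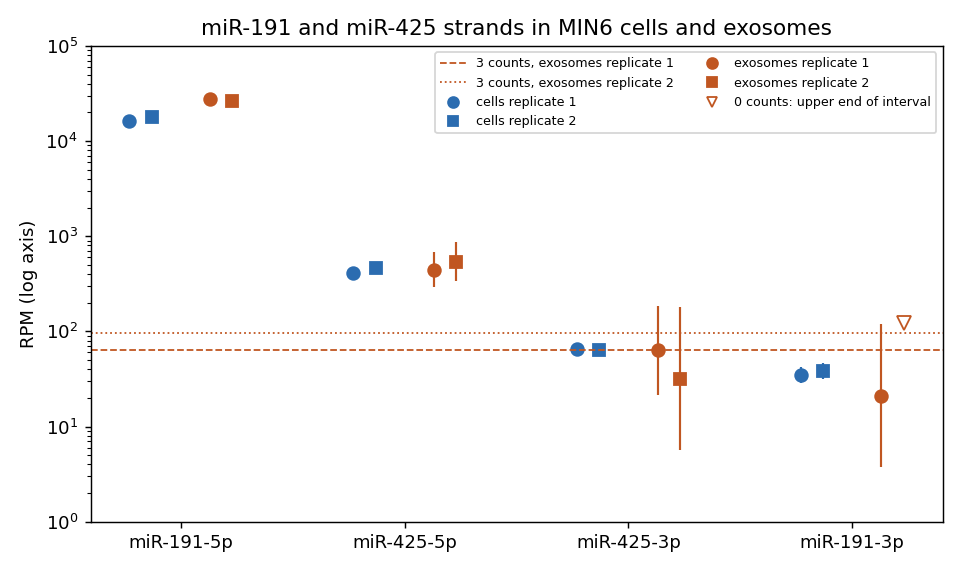
Level of each strand in each library in RPM on a log axis, with cells in blue and exosomes in orange, circles for replicate 1, squares for replicate 2 and vertical lines for the 95% Wilson interval. The exosome points of miR-191-5p (27483 and 26489 RPM) sit above the cell points (16382 and 18083 RPM), and the 3p strands of the exosomes lie at or below the dashed and dotted lines that mark 3 counts.

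Fold changes between exosomes and MIN6 were tested over the 438 miRNAs that passed the count filter. The quasi-likelihood test of edgeR was used with Benjamini-Hochberg adjustment and TMM scaling. TMM scaling makes a trimmed and weighted mean of the fold changes equal, rather than the library sums. The median log2 fold change of the tested miRNAs was still -0.75 with it, so 0 was not their middle. Of all tested miRNAs, 53.2% were called at an adjusted p under 0.05, 23.7% as higher and 29.5% as lower in exosomes. All 4 strands passed the filter, but the 3p strands passed it through MIN6 alone. By this test 2 of the 4, both 3p strands, were called lower and 0 higher. These strands were kept through their MIN6 counts and lay at or below the floor in exosomes. The filter itself therefore favors a lower call for them, and the calls are no independent support for a decrease. The same 2 had an unadjusted p under 0.05, as did 62.8% of all tested miRNAs. At the same adjusted threshold the exactTest of edgeR called miR-191-3p alone (61% of all tested miRNAs), and DESeq2 called miR-425-5p alone (58.5%). The criterion of the study was an exactTest with an unadjusted p under 0.05 and a change of at least 2-fold. Both 3p strands met it (edgeR exactTest p = 0.00732 for miR-191-3p and 0.0371 for miR-425-3p), under the same limit of the filter. The p-value part of this criterion was met by 286 of the 438 tested miRNAs, so meeting it is common. With library size alone 31.3% of the miRNAs were called higher, and 30 of the 438 were called lower, against 129 with TMM. None of the members was called with library size alone. Without either MIN6 library no miRNA at all was called by the quasi-likelihood test, with 159 and 143 at an unadjusted p under 0.05.

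For miR-191-5p the direction depended on the scaling. The TMM-normalized CPM, counts scaled like RPM but to the library sum times its TMM factor, were 24849 and 29543 in MIN6 and 15374 and 19375 in exosomes. The exosomes therefore lay below MIN6 without overlap, the reverse of the order by RPM, as in 51.8% of tested miRNAs, while 33.3% lay above. The log2 fold change was -0.65 (standard error 0.46, 95% interval -1.90 to 0.60, edgeR quasi-likelihood adjusted p = 0.281), which did not pass the threshold. With library size alone it was 0.66 (adjusted p = 0.331) and with upper quartile scaling 0.094 (adjusted p = 0.889), and over all alternatives the adjusted p ranged from 0.00447 to 0.889. The low end came from leaving out exosome replicate 2 (log2 fold change -0.77), and miR-191-5p also passed without exosome replicate 1 (-0.53, edgeR adjusted p = 0.0180) and without a filter on low counts (-1.95, edgeR adjusted p = 0.0499). In the fits that left out an exosome library the spread comes from MIN6 alone.

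Relative to the other miRNAs, miR-191-5p lay near the middle. Its log2 fold change ranked 223 from the lowest of 438, 0.099 above the median of all tested miRNAs (-0.75). That median moved to 0.61 with library size alone and to -0.066 with upper quartile scaling, and miR-191-5p lay 0.050 and 0.16 above it. It lay below the median without a filter (difference -0.28), under a minimum of 10 counts per library (-0.12) and without exosome replicate 2 (-0.055), whereas without exosome replicate 1 it lay 0.87 above.

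Among the 55 miRNAs with a mean of at least 1000 RPM in MIN6, a limit chosen after the values were seen, the median log2 fold change was -3.13, and miR-191-5p ranked 7 from the highest, next to miR-383-5p (-0.62) and miR-184-3p (-0.76). Because these miRNAs were chosen by their level in MIN6, against which the fold change is taken, the choice itself favors low fold changes, and the order is a description with no test.

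miR-425-5p lay below the median of all tested miRNAs (difference -0.38). This position depended on the exosome libraries. Without exosome replicate 1 miR-425-5p lay 0.57 above the median, and without exosome replicate 2 the difference was -0.71. The TMM-normalized CPM of miR-425-5p were 626 and 749 in MIN6 against 248 and 396 in exosomes. The exosomes lay below MIN6 without overlap, as in 51.8% of tested miRNAs, whereas by RPM the groups overlapped. The log2 fold change was -1.12 (standard error 0.42, 95% interval -2.27 to 0.03, edgeR quasi-likelihood adjusted p = 0.0847), which missed the threshold. It passed with DESeq2 (-1.25, adjusted p = 0.0415), and the adjusted p ranged from 0.00648 to 0.780 over the alternatives. With library size alone the fold change turned to 0.18. Without exosome replicate 1 it was -0.84 (edgeR adjusted p = 0.0412) and without exosome replicate 2 it was -1.43 (edgeR adjusted p = 0.00648), both past the threshold.

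The calls of the 3p strands rested on few exosome reads. miR-191-3p had a fitted log2 fold change of -2.87 (standard error 0.84, edgeR quasi-likelihood adjusted p = 0.0473) and miR-425-3p of -1.71 (standard error 0.47, adjusted p = 0.0412). On summed counts, the ratio of exosomes to MIN6 for miR-191-3p was 0.137 with TMM scaling (95% exact interval 0.00345 to 0.772) and 0.348 by RPM (0.00878 to 1.96). For miR-425-3p it was 0.310 with TMM scaling (0.0839 to 0.800) and 0.787 by RPM (0.213 to 2.03). At the RPM level of MIN6, 2.87 counts of miR-191-3p and 5.08 of miR-425-3p would fall on the exosome libraries together, against 1 and 4 observed. A decrease of either strand was therefore not detectable on that scale.

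Both calls were lost with library size alone (edgeR quasi-likelihood adjusted p = 0.289 for miR-191-3p and 0.714 for miR-425-3p), with upper quartile scaling (0.107 and 0.178) and with the replicate number as a block (0.0867 and 0.157). DESeq2 did not call them either (adjusted p = 0.0868 and 0.0872). The call of miR-191-3p was also lost without cell replicate 1 (log2 fold change -3.01), cell replicate 2 (-2.77) or exosome replicate 2 (-2.23). That of miR-425-3p was lost without any single library, with fold changes of -1.76 and -1.69 without cell replicates 1 and 2 and of -2.17 and -1.47 without exosome replicates 1 and 2. Over all alternatives the edgeR or DESeq2 adjusted p ranged from 0.0118 to 0.322 for miR-191-3p and from 0.0112 to 0.714 for miR-425-3p.

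**Figure D3:**
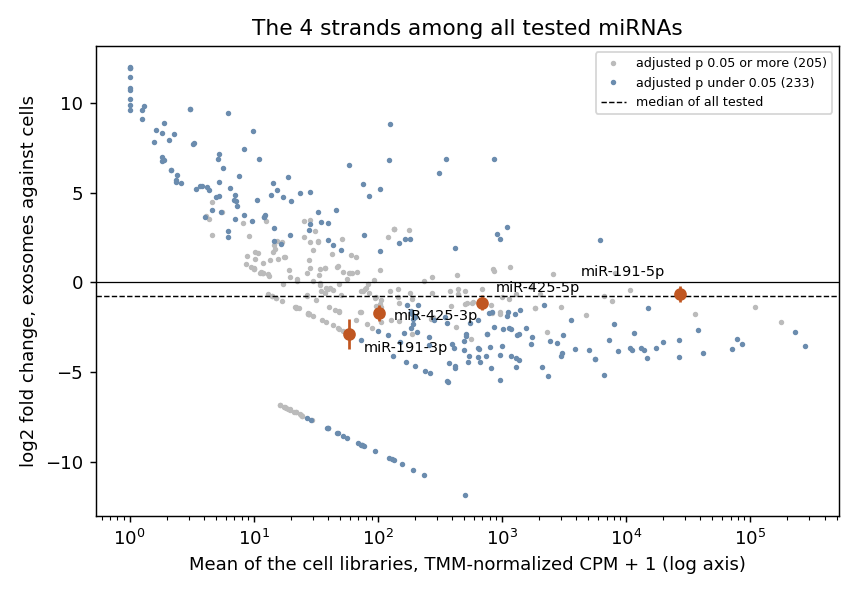
Log2 fold change between exosomes and cells against the mean of the cell libraries in TMM-normalized CPM plus 1 on a log axis, for the 438 tested miRNAs, with the 4 strands in orange with their standard errors. miR-191-5p (-0.65) and miR-425-5p (-1.12) lie near the dashed median of -0.75, and the 3p strands lie below it.

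**Figure D4:**
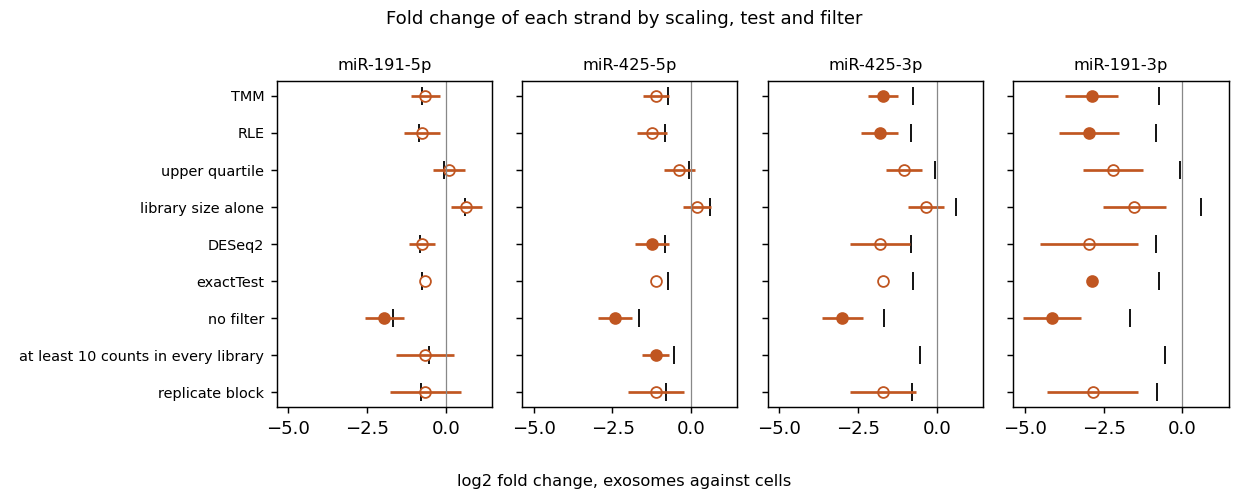
Log2 fold change of each strand under each scaling, test, filter and block, with horizontal lines for the standard error (not given for exactTest), filled points for an adjusted p under 0.05 and black ticks for the median of all miRNAs in that fit. miR-191-5p moves with the tick from -0.65 with TMM to 0.66 with library size alone. miR-191-3p moves with it as well, from -2.87 to -1.52, and lies left of the tick in each fit that holds it.

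Ratios within a library do not depend on the scaling. The ratio of miR-191-5p to miR-425-5p was 39.7 (95% exact interval 37.5 to 42.0) and 39.4 (37.2 to 41.8) in MIN6. In exosomes it was 62.1 (40.5 to 100.7) and 48.9 (30.4 to 84.4). Both exosome values were higher than both MIN6 values, but the interval of exosome replicate 2 included the MIN6 values. Tested together with the 5p to 3p ratios of other hairpins, 55 ratios in all, in an edgeR quasi-likelihood fit with a term for each library, the ratio changed by 0.49 on the log2 scale (standard error 0.49, 95% interval -0.49 to 1.46, adjusted p = 0.470, and 0.101 to 0.827 over the alternatives). The main strands of the pair did not differ detectably in their change between exosomes and MIN6, and a log2 difference of up to 1.46 is within the interval.

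The strand preference was strong for miR-191 and moderate for miR-425. In MIN6 the 5p strand made up 99.79% of the miR-191 counts in both libraries (95% Wilson interval 99.74 to 99.83 in each), and 86.4% (84.5 to 88.1) and 87.8% (86.0 to 89.5) of the miR-425 counts. Among 156 hairpins with both strands listed and at least 100 counts in MIN6, the dominant strand held a median of 94.9%. Of these hairpins 16 had a more dominant strand than miR-191 and 102 a more dominant strand than miR-425.

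The exosomes held the same dominant strands. The 5p share of miR-191 was 99.92% (99.57 to 99.99) and 100% (99.54 to 100), and that of miR-425 was 87.5% (69.0 to 95.7) and 94.4% (74.2 to 99.0), with Wilson intervals that include the shares of MIN6. At the strand ratio of MIN6, 4.53 counts of miR-191-3p would accompany the 2136 exosome counts of miR-191-5p, and the 1 observed has a 95% exact Poisson interval of 0.0253 to 5.57. For miR-425-3p the number is 5.64, against 4 observed (1.09 to 10.2).

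In the fit over the 55 ratios, the 5p to 3p ratio was higher in exosomes by 2.18 on the log2 scale for miR-191 (standard error 1.21, 95% interval -0.21 to 4.58, edgeR quasi-likelihood adjusted p = 0.122) and by 0.50 for miR-425 (standard error 0.86, 95% interval -1.20 to 2.20, adjusted p = 0.657). Neither passed the threshold, in a fit where 54.5% of the ratios did. Over the alternatives the edgeR adjusted p ranged from 0.0974 to 0.458 for miR-191 and from 0.476 to 0.973 for miR-425. The unadjusted p was 0.0734 and 0.561 in the edgeR fit.

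**Figure D5:**
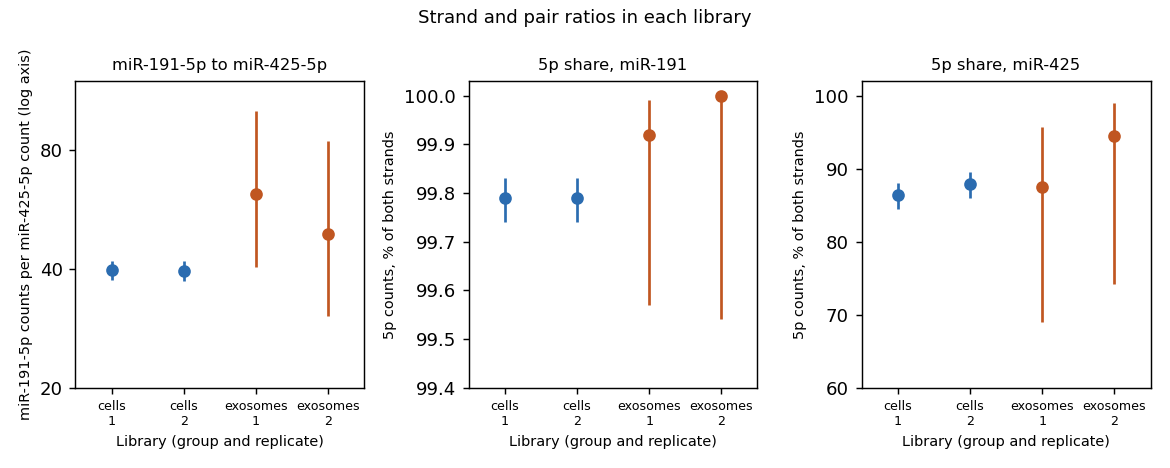
Ratio of miR-191-5p to miR-425-5p counts (left, log axis, exact 95% intervals) and the 5p share of the counts of both strands for miR-191 and miR-425 (middle and right, axes that do not start at 0, 95% Wilson intervals) in each library. The 5p shares of the exosomes have intervals that include the cell values of 99.79% for miR-191 and of 86.4% and 87.8% for miR-425.

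Nearly all reads on both hairpins lay on an annotated strand. On the mir-191 hairpin 1 of 48105 and 3 of 46467 reads of MIN6 lay on neither strand, and 0 of 1305 and 0 of 832 reads of the exosomes, which allow shares of up to 0.230% and 0.361%. On mir-425 the numbers were 1 of 1402 and 0 of 1339 for MIN6 and 0 of 24 and 0 of 18 for the exosomes. There the exosome intervals reached 13.8% and 17.6%. Over all hairpins, reads on neither strand made up 10.9% and 9.58% of the MIN6 libraries and 32.8% and 42.0% of the exosome libraries. A count of 0 such reads was found for 43.2% and 33.9% of the hairpins with at least 20 reads in exosomes, so it is shared with many others.

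The exosome libraries differed from each other by 0.33 on the log2 scale of TMM-normalized CPM for miR-191-5p and by 0.67 for miR-425-5p. The median difference was 0.98 over the 100 miRNAs that reached 10 counts in each library, of which 20 had a smaller difference than miR-191-5p and 39 a smaller one than miR-425-5p. Between the MIN6 libraries, where the median was 0.17, the differences of 0.25 and 0.26 were larger than those of 63 and 66 of the 100 miRNAs.

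Over the 4 libraries, the pattern most like that of miR-191-5p, by the root mean square difference of centered log2 CPM, was that of miR-342-5p (0.0917), followed by miR-210-3p (0.197) and miR-7b-3p (0.220). For miR-425-5p the closest were miR-210-3p (0.0886), miR-324-3p (0.109) and miR-700-3p (0.231). miR-425-5p itself ranked 4 in likeness to miR-191-5p, at 0.267, and the median over the 99 miRNAs compared was 1.47. miR-210-3p, a miRNA known for its induction by hypoxia, gave 2012 and 1933 counts in MIN6 against 39 and 32 in exosomes. For miR-342-5p the counts were 756 and 790 against 20 and 15.

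A list of miRNAs from introns of protein-coding genes served as a comparison for the pair, whose own place in such an intron was not established here. Of 44 such strands listed, 41 were tested, 4 were called higher and 19 lower in exosomes, beside 23.7% higher and 29.5% lower over all tested miRNAs, and the median log2 fold change was -1.89, against -0.75 for all tested miRNAs. With library size alone 5 were higher and 3 lower, with a median of -0.52 against 0.61. The most abundant in MIN6 were miR-25-3p of Mcm7 (log2 fold change -3.13, edgeR quasi-likelihood adjusted p = 0.0344), miR-342-3p of Evl (-1.78, adjusted p = 0.0678), miR-423-5p of Nsrp1 (2.38, adjusted p = 0.0400) and miR-93-5p of Mcm7 (-1.82, adjusted p = 0.157). Of these 4, miR-25-3p was thus called lower and miR-423-5p higher.

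miRNAs that are often used as references for normalization had fold changes on both sides of 0. All 11 listed besides the pair were tested, and 2 were called higher and 4 lower in exosomes, so that the number called in either direction was near the 53.2% of all tested miRNAs. Their median log2 fold change was -1.22, against -0.75 for all tested miRNAs. With library size alone 3 were higher and 0 lower by the quasi-likelihood test of edgeR, with a median of 0.17 against 0.61, and without exosome replicate 1 the lower ones were 8. Their fold changes ran from -3.23 for let-7i-5p to 2.43 for miR-320-3p. Those of miR-191-5p and miR-425-5p lay inside this range, near miR-16-5p (-0.49) and miR-24-3p (-1.04).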

How the data were processed

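Small RNA libraries of MIN6 cells and MIN6-derived exosomes were prepared with the SMARTer smRNA-Seq kit, which adds a poly(A) tail, and read on a HiSeq2500. Upstream, the authors removed adapters and rRNA reads, aligned to the genome, then miRBase v21, then RNAcentral v10.0, and deposited raw counts per mature miRNA and per hairpin. The submitters' processing notes name mm10, cutadapt, Bowtie, Bowtie2, STAR, RSEM and edgeR without roles. The deposited RPM values are each count over the sum of its library. The 8 deposited columns with strand reads of hairpins, in which values can be joined, were left unused.

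Groups and replicates follow the sample labels. Counts were kept by filterByExpr (minimum count 10) and tested with edgeR 4.0.16 (glmQLFTest, TMM, R 4.3.3), with the group as the single term over all 4 libraries and Benjamini-Hochberg adjustment. The standard error is the size of the log2 fold change divided by the root of F. For strand ratios, pairs with at least 10 counts per strand in all and 10 per library were fitted with terms for library, strand and strand by group. An exact permutation test with this design has a smallest p of 0.333. DESeq2 1.42.0, Python 3.11.15, scipy 1.17.1 and matplotlib 3.10.9 were also used, and the fits were tested on simulated data. Alternatives were RLE, upper quartile and library size scaling, exactTest, DESeq2, other filters, a replicate block, removal of the 5 top miRNAs of each group, and omission of each library. Named miRNAs were the members, those sharing a seed, the 3 most like miR-191-5p and miR-425-5p, and up to 4 of the highest in each list. miR-383-5p, miR-184-3p, miR-320-3p and miR-16-5p were chosen after their values were seen. The members and lists were chosen with earlier results of these data known.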

Additional observations from a re-analysis of the deposited data

How the results depend on the processing

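miR-191-5p was positive with library size alone (log2 fold change 0.66) and upper quartile scaling (0.094), and miR-425-5p with library size alone (0.18). Without a filter both passed the threshold (-1.95 and -2.43), as did miR-425-5p with DESeq2 (-1.25) and with at least 10 counts in every library (-1.14), a filter that removed both 3p strands. Of the 1101 miRNAs fitted without a filter, 104 were called higher and 202 lower, and the median log2 fold change was -1.67. DESeq2 called 58.5% of its miRNAs. Of the 100 with at least 10 counts in every library, 37 were called higher and 40 lower. miR-191-3p lost its call with library size alone (-1.52), upper quartile scaling (-2.21), DESeq2 (-2.96) and the replicate block (-2.85). miR-425-3p lost it with library size alone (-0.35), upper quartile scaling (-1.03), exactTest (-1.70), DESeq2 (-1.81) and the block (-1.71). The cause was not tested. Leaving out each library gave -0.77 to -0.52 for miR-191-5p, -1.43 to -0.84 for miR-425-5p, -9.08 to -2.23 for miR-191-3p and -2.17 to -1.47 for miR-425-3p. The value of -9.08 comes from the fit in which the exosomes held 0 counts and depends on the prior count. The lone library of a group is assumed to vary like the other group.

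Over all miRNAs 104 were called higher and 129 lower. The lower calls were 30 with library size alone, 202 without a filter and 40 with at least 10 counts in every library, where 37 were higher. Leaving out a library gave 0 to 124 higher and 0 to 168 lower calls. With edgeR's quasi-likelihood test the count was 0 without either cell library, where 159 and 143 miRNAs had an unadjusted p under 0.05. The share of higher among all calls rests on the scaling, with 137 higher and 30 lower for library size alone and 129 and 95 for upper quartile scaling.

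The replicate numbers were not taken as pairs, since the study names no block for its exactTest. The deviations of same-numbered libraries had a correlation of -0.00245 over 100 miRNAs. With the low exosome counts this value cannot show whether the libraries were paired. With the block 117 miRNAs were higher and 109 lower, and the strand ratio test called 12 of 55 pairs instead of 30. Leaving out a library gave 7 to 32 such calls. The ratio of miR-191-5p to miR-425-5p and the strand ratios of both hairpins kept their direction and stayed past no threshold in all 7 alternatives, with log2 changes of 0.31 to 0.65 for the first, 1.47 to 9.70 for miR-191 and 0.05 to 1.33 for miR-425. The 9.70 comes from the fit without exosome replicate 1, where miR-191-3p had 0 exosome counts, and depends on the prior count. Depth limits the 3p strands, since 3 counts of an exosome library correspond to more RPM than either strand had in the cells, except for miR-425-3p in exosome replicate 1.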
